A study of Mus musculus with 21 samples.

Results

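The tricarboxylic acid (TCA) cycle and the entry of pyruvate into it were followed through 33 genes, taken from the 37310 genes of the deposited tables by their symbols. All 33 had a row in both tables, and all 33 were among the 16050 genes kept by the filter on low counts. They code for the pyruvate dehydrogenase complex and its regulators, pyruvate carboxylase, the enzymes of the cycle itself, and the malic enzymes, malate dehydrogenase, aspartate aminotransferases and glutamate dehydrogenase that pass carbon and nitrogen in and out of it.

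RNA was sequenced in bulk from sorted Lgr5 cells, which act as stem cells low in the crypts of the intestine, in 21 libraries from mice aged 3 months. Every mouse carried Lgr5EGFPcre-ERT2, an allele that drives EGFP and an inducible Cre from Lgr5, and the brightest 2 to 3% of the fluorescent cells were collected. No tamoxifen is named in the labels. The study asks how diet affects these cells, and each of its 7 groups held 3 libraries from mice fed 1 purified diet from weaning. AIN was the AIN76A control diet (2 females and 1 male). NWD1 and NWD2 were fed diets of those names, each to 2 males and 1 female, and the sources used here do not give their makeup. NWD1Ca was NWD1 with calcium written in the labels as 7.0 mg/g body weight (3 females), and NWD1VitD was NWD1 with vitamin D written as 2.3 IU/g body weight (2 males and 1 female). AINlowVitD was AIN with vitamin D written as 0.11 IU/g body weight (2 females and 1 male). AIN_VdrKO was AIN76A fed to 3 males labelled as knocked out for Vdr, the vitamin D receptor.

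Pyruvate made by glycolysis crosses into the mitochondrion and is either oxidised to acetyl-CoA by the pyruvate dehydrogenase complex or carboxylated to oxaloacetate by pyruvate carboxylase. Citrate synthase joins acetyl-CoA to oxaloacetate, and the cycle then releases carbon dioxide, loads electron carriers for the respiratory chain and supplies intermediates for lipid, amino acid and nucleotide synthesis. In the crypt, Lgr5 cells are known for high mitochondrial activity, and the use of pyruvate by mitochondria is known to bear on the balance between stem cells and their differentiating progeny.

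Gene counts ranged from 19889795 to 115435120 per library. The libraries formed 2 sets on the first principal component of all genes tested, which held 43.9% of the variance. AIN, NWD1 and NWD2 lay between -104.3 and -38.6, and NWD1Ca, NWD1VitD and AINlowVitD between 71.2 and 79.2, while the libraries labelled AIN_VdrKO lay at 43.8, 3.83 and -21.9. The mitochondrial ribosomal RNA share of gene counts was 0.234 to 0.965% over the first set, 2.95 to 5.07% in the second and 1.38 to 2.80% in the libraries labelled AIN_VdrKO. The labels name no batch. Between the sets, diet and set cannot be told apart. For the libraries labelled AIN_VdrKO, genotype and their place between the sets cannot be told apart. Vdr was read at 297, 482 and 247 CPM (counts scaled to library size) in the libraries labelled AIN_VdrKO. It was read at 338, 373 and 746 in AIN and at 249.9, 273 and 155 in AINlowVitD. The gene's RNA was thus not depleted in the libraries labelled AIN_VdrKO. These are counts over the whole gene, and the sources used here do not name the deleted part, so they cannot test the label. AIN 1, AIN 2 and NWD1 1 stood apart from the rest of their set on the same component, at -38.6, -40.2 and -42.6, and NWD1 1 and NWD1 2 held 24.7% and 20.4% of their counts in spike-in RNAs.

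Lgr5 stem cell markers were read in every group. None of the 12 stem cell and 16 enterocyte markers was at 0 in all libraries of a group. The summed level of the stem cell markers was 6801 to 9882 CPM in NWD1, 2366 to 4302 CPM in AIN and 1133 to 3451 CPM over the second set. In NWD2 it was 3148 to 10929 CPM. Enterocyte markers (16 genes) summed to 2459 to 5814 CPM in NWD1, 18339 to 23790 CPM in AIN and 20620 to 66907 CPM over the second set. In NWD2 they summed to 3565 to 25586 CPM. Leukocyte markers stayed at or below 69.2 CPM and stromal and vessel markers at or below 31.2 CPM in sum. In bulk libraries, fewer cells of a type and less RNA per cell cannot be told apart. Nothing in the labels says more than that each library is a mouse sample of its group, so p-values measure the spread between these samples.

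The promoters of 3 genes are shown because these genes recur in the comparisons that follow. Sdhd codes for the subunit that anchors succinate dehydrogenase in the inner membrane and had the smallest p-value among the 33 genes between NWD1 and AIN. Got2 and Glud1 code for mitochondrial aspartate aminotransferase and glutamate dehydrogenase, which both interconvert glutamate and 2-oxoglutarate, and they moved in opposite directions between the sets on the CPM scale. Each window runs from 250 bases before to 50 bases after the RefSeq start in GRCm38.p6, 5′ to 3′ on the strand of the gene, and capitals mark the motifs named after it.
Sdhd, chr9:50603800-50604099, minus strand: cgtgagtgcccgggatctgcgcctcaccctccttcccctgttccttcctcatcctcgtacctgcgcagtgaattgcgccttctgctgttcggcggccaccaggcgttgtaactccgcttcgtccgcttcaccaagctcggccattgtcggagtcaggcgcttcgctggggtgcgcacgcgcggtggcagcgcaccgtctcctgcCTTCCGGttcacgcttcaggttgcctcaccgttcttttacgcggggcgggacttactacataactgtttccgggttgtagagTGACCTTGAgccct
Got2, chr8:95888352-95888651, minus strand: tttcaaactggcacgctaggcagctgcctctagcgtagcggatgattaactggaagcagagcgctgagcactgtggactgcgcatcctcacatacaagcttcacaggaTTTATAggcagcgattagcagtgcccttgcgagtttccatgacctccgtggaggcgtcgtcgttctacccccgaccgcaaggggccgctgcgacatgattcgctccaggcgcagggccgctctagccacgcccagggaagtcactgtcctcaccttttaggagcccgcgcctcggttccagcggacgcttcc
Glud1, chr14:34310477-34310776, plus strand: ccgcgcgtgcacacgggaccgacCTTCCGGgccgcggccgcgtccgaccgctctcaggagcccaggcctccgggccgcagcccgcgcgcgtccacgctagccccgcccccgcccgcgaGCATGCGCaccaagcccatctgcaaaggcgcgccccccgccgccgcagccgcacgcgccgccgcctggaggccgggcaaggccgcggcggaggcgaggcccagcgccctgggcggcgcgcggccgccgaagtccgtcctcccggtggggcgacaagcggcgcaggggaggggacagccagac

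In the Sdhd window the capitals are CTTCCGG, the reverse complement of the ETS site CCGGAAG, 46 bases before the start, and TGACCTTGA, the reverse complement of the oestrogen-related receptor (ERR) element TCAAGGTCA, 36 bases after it. The GENCODE M21 annotation of the same assembly places 13 bases of the Sdhd exon at the end of this window and 190 bases of Timm8b, a neighbour read from the other strand, at its beginning. In the Got2 window the capitals are TTTATA, the reverse complement of TATAAA, 142 bases before the RefSeq start. In the annotation 196 bases of this window lie in a Got2 exon, and the match lies inside that exon. In the Glud1 window they are CTTCCGG, 227 bases before the start, and the NRF1 element GCATGCGC, 132 bases before it. The first exon of Glud1 fills 50 bases of the window and an exon of Shld2 on the other strand fills 17. The motifs do not overlap each other.

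Of the 33 genes, 29 had at least 1 such window, 39 windows in all, and both strands were searched. The ERR element stood in 1 of the 39 windows (Sdhd) and in 0.423% of all 32851 windows of the same length. The NRF1 element stood in 4 windows of 3 genes (Glud1, Ogdh and Sdhb) and in 2.71% of all windows. The ETS site stood in 6 windows (Dlst, Glud1, Idh3b, Idh3g, Sdhb and Sdhd) and in 8.86% of all windows, and TATAAA in 1 window (Got2) and in 13.6% of all windows. The motifs were chosen after the data were seen. A match is a run of letters and no measurement of binding. Pdp1, Idh3a, Sdhc and Me2 had no window in the table.

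Levels between genes were compared in TPM, the deposited unit that divides counts by gene length as well as by library size. Mdh2, the mitochondrial malate dehydrogenase that closes the cycle, ranked first of the 33 genes by mean TPM in all 7 groups, and Sdhd ranked second in all 7. Mdh2 read 2164, 1782 and 2646 TPM in AIN, 1271, 1499 and 1512 in NWD1 and 1331, 2172 and 2554 in NWD2. In the second set Mdh2 was lower on this scale, at 863, 747 and 716 TPM in NWD1Ca, 728, 768 and 509.8 in NWD1VitD and 896, 666 and 907 in AINlowVitD. Mdh1, the cytosolic malate dehydrogenase, and Sdhb, the iron-sulphur subunit of succinate dehydrogenase, took ranks 3 to 5 in every group.

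At the other end stood the regulators and the side entries. Pcx, which codes for pyruvate carboxylase, had a median of 2.22 TPM over the 21 libraries (1.3 to 25.0), Pdp1, a phosphatase that switches pyruvate dehydrogenase on, 2.5 (0.624 to 9.26), Me1, the cytosolic malic enzyme that makes NADPH, 4.68 (0.892 to 18.9) and Pdk1, a kinase that switches pyruvate dehydrogenase off, 6.87 (3.83 to 15.2). Among the pyruvate dehydrogenase kinases, Pdk2 and Pdk3 had medians of 27.2 and 27.2 TPM. The catalytic core of the complex ranged from Pdhx (median 22.2 TPM), the protein that tethers its E3 subunit, and Dlat (36.4), its E2 acetyltransferase, to Pdha1 (88.5) and Pdhb (177), the 2 chains of its E1 decarboxylase. Me2 and Glud1 were among the genes whose rank differed between the sets. Me2, the mitochondrial malic enzyme that turns malate into pyruvate, ranked 8, 9 and 8 in AIN, NWD1 and NWD2, ranked 3, 4 and 5 in NWD1Ca, NWD1VitD and AINlowVitD, and ranked 14 in the libraries labelled AIN_VdrKO. Glud1 ranked 28, 28 and 29 in the first set and 20, 21 and 21 in the second. Neighbouring ranks were often closer than the spread between libraries: in AIN, Mdh1 at 1191, 955 and 1156 TPM and Sdhb at 1205, 905 and 1084 overlapped.

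**Figure D1:**
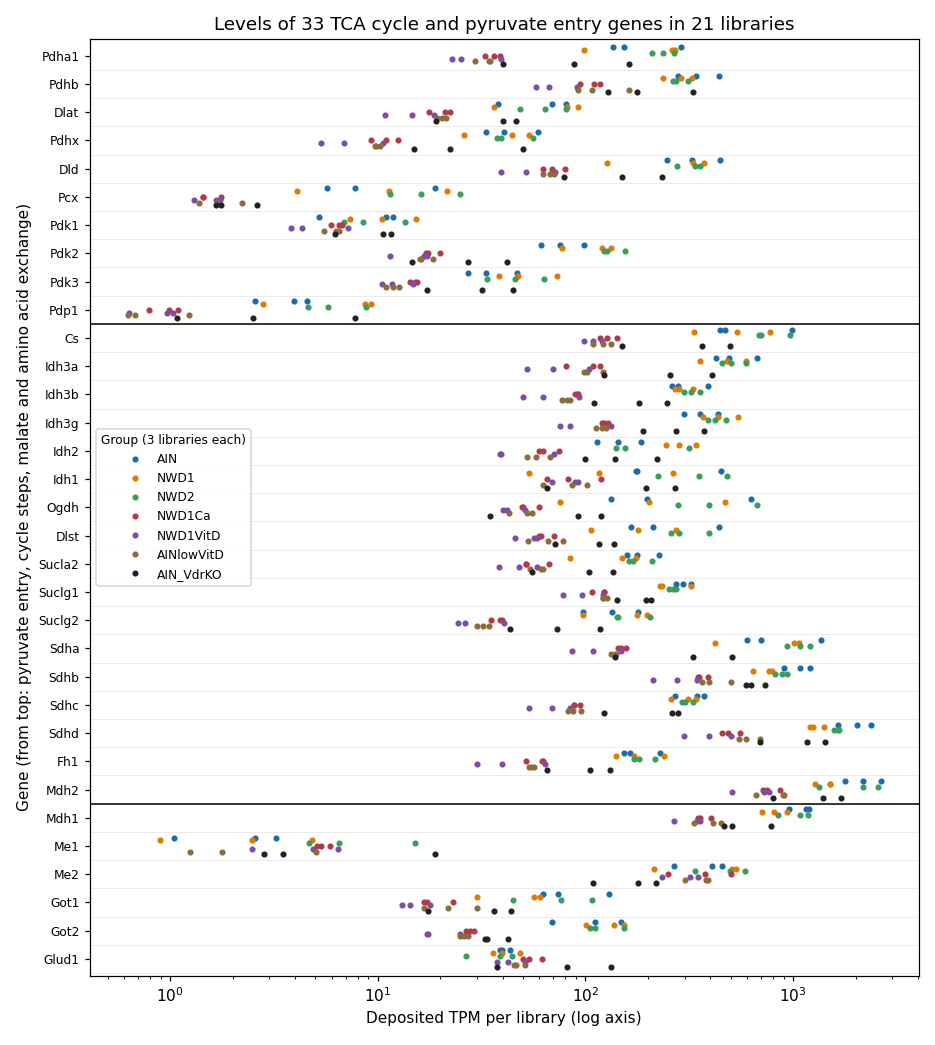
Deposited TPM (log axis) of the 33 genes in the 21 libraries, 1 point per library and 1 colour per group, ordered by role from pyruvate entry at the top to malate and amino acid exchange at the bottom. Mdh2 and Sdhd sit farthest right, Pcx, Pdp1, Me1 and Pdk1 farthest left, and most genes lie lower on this scale in NWD1Ca, NWD1VitD and AINlowVitD than in AIN, NWD1 and NWD2.

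Together the 33 genes took 1.19 to 1.89% of gene counts in AIN, NWD1 and NWD2, 0.636 to 0.899% in NWD1Ca, NWD1VitD and AINlowVitD, and 0.815 to 1.22% in the libraries labelled AIN_VdrKO. Within the first set the share was 1.57 to 1.89% in AIN, 1.19 to 1.46% in NWD1 and 1.42 to 1.75% in NWD2, so the NWD1 libraries lay below every AIN library.

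Within the first set, NWD1 was compared with AIN to ask what that diet changes. No gene of the 33 passed the test in either direction, while 0.766% of all 16050 genes did (0.106% higher and 0.66% lower). The fitted log2 fold changes were nonetheless mostly below 0: 29 of 33, with a median of -0.54 against -0.04 over all genes tested. At an unadjusted p under 0.05 stood 14 of the 33 genes, and 15.2% of all genes. DESeq2 called 7 of the 33 lower (Sdhd, Sucla2, Pdhb, Got1, Mdh2, Dlst and Sdhb), beside 3.5% of all genes lower. The fit without a filter on low counts called 2 lower (Idh1 and Got1; 2.86% of all genes), the fit without a sex term called 1 lower (Sdhd; 1.88% of all genes), and limma on log2(TPM + 1) called 0. On the TPM scale the median of all genes shifted by 0.40 and that of the 33 genes was -0.13.

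Sdhd came nearest to the threshold. It read 725, 642 and 468 CPM in NWD1 and 1482, 1103 and 1219 CPM in AIN, so the groups did not overlap. The log2 fold change was -1.11 ± 0.27 (SE), adjusted p = 0.0525. The other subunits of succinate dehydrogenase had smaller differences: -1.0 ± 0.32 (SE) for Sdhb, -0.58 ± 0.28 (SE) for Sdhc, the second anchor subunit, and -0.54 ± 0.32 (SE) for Sdha, the flavoprotein that binds succinate.

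Idh1 had the most negative fitted change of the 33. This gene codes for the cytosolic isocitrate dehydrogenase, which makes NADPH and lies outside the mitochondrial cycle. It read 61, 103 and 203 CPM in NWD1 and 256, 231 and 455 CPM in AIN, again with no overlap, and its change was -1.37 ± 0.45 (SE), adjusted p = 0.131. Its mitochondrial counterpart Idh2, which also makes NADPH, read 286, 312 and 221 CPM in NWD1 and 167, 251 and 149 CPM in AIN. These groups overlapped, and the change was 0.46 ± 0.28 (SE), adjusted p = 0.473, the most positive of the 33.

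Other pairs of related enzymes were read in the same way. Got1, the cytosolic aspartate aminotransferase, read 34.3, 54.2 and 43.4 CPM in NWD1 and 90.1, 97.6 and 133 CPM in AIN (-1.28 ± 0.36 (SE), adjusted p = 0.0795), while its mitochondrial counterpart Got2 read 117, 139 and 107 and 102, 149 and 153 CPM (-0.22 ± 0.20 (SE), adjusted p = 0.651). Got1 did not overlap between the groups and Got2 did. Sucla2, the subunit that makes succinyl-CoA synthetase form ATP, read 152, 245 and 181 CPM in NWD1 and 362, 367 and 362 CPM in AIN (-0.90 ± 0.26 (SE), adjusted p = 0.0864). Suclg2, the subunit that makes the same enzyme form GTP, changed by -0.28 ± 0.23 (SE), adjusted p = 0.624.

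Along the chain of reactions, the E1 beta chain Pdhb changed by -0.83 ± 0.24 (SE) (adjusted p = 0.0882), and Dlst, the E2 subunit of 2-oxoglutarate dehydrogenase, by -0.98 ± 0.30 (SE) (adjusted p = 0.104). Mdh2 read 1196, 1104 and 957 CPM in NWD1 and 2576, 1941 and 2213 CPM in AIN, with no overlap, and changed by -1.01 ± 0.32 (SE) (adjusted p = 0.121). The 4 genes with a value above 0 were Idh2, Pdp1, Pdk3 and Pdk2, at 0.46, 0.45, 0.15 and 0.10. Pdp1, Pdk3 and Pdk2 are regulators of pyruvate dehydrogenase, while its subunits and Pdk1 had values below 0. The median standard error of the 33 genes was 0.28 here, larger than the values of Pdk3 and Pdk2. The summed enterocyte and Lgr5 stem cell marker levels given above separated the same 2 groups without overlap. Of 16 enterocyte markers 3 passed as lower, beside 0.66% of all genes, and 0 of 12 stem cell markers passed. Their part in the values of the 33 genes was not tested.

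NWD2 against AIN gave 0 calls among the 33 genes and 0% of all genes. An unadjusted p under 0.05 was seen for 5 of the 33, beside 6.85% of all genes. DESeq2 called 0, and the fit without a filter on low counts called 1 higher (Me1), beside 0.0931% of all genes. The median log2 fold change was -0.35 against 0 over all genes, with 25 of 33 below 0, but it turned to 0.08 on the TPM scale. Me1 read 5.33, 9.5 and 21 CPM in NWD2 and 2.13, 6.05 and 3.67 CPM in AIN (1.69 ± 0.59 (SE), adjusted p = 0.718), with overlap. Pdhb had the most negative value, -0.79 ± 0.24 (SE).

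NWD2 against NWD1 also gave 0 calls in the 33 genes, beside 0.00623% of all genes. At an unadjusted p under 0.05 stood 5 of the 33, and 10.7% of all genes. The median was 0.25, against 0.00 over all genes, and 25 of the 33 values were above 0. Idh1 read 180.0, 363 and 473 CPM in NWD2 and 61, 103 and 203 CPM in NWD1 (1.49 ± 0.45 (SE), adjusted p = 0.186), and it passed as the single called gene with DESeq2 (adjusted p = 0.0453, beside 1.71% of all genes higher) and in the fit that left out NWD1 3 (0.0441). Without a filter on low counts Idh1 and Me1 were called higher, beside 2.45% of all genes. Ogdh, the E1 subunit of 2-oxoglutarate dehydrogenase, read 486, 873 and 1427 CPM in NWD2 and 186, 389 and 776 CPM in NWD1 (1.06 ± 0.49 (SE)), a range within each group wider than the gap between them.

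**Figure D2:**
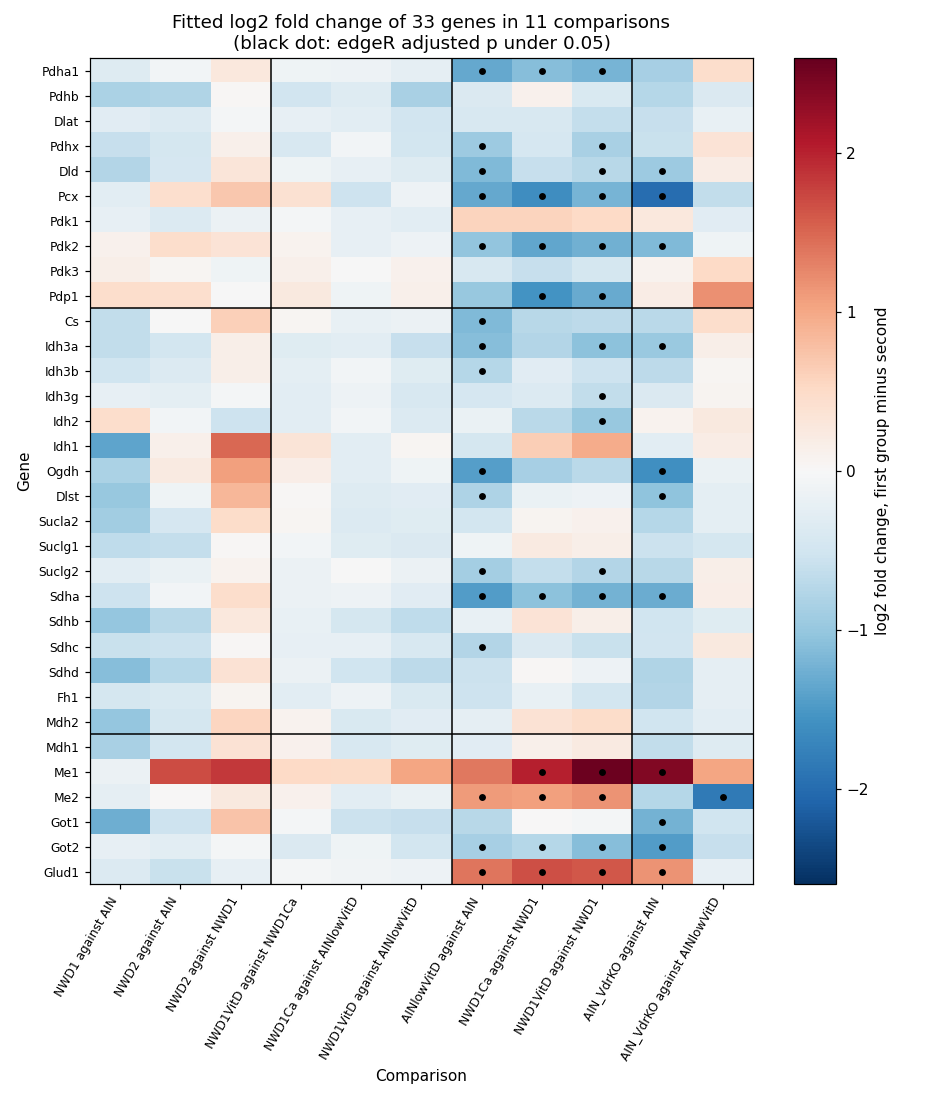
Fitted log2 fold change of the 33 genes (rows, ordered by role) in 11 comparisons (columns), red for higher and blue for lower in the first group named, with a black dot where the edgeR adjusted p was under 0.05. No dot falls in the first 6 columns, which stay within 1 set of libraries, and the 4 columns that cross sets or set the libraries labelled AIN_VdrKO against AIN hold 51 of the 52 dots.

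The second set allows 3 comparisons: NWD1VitD against NWD1Ca, NWD1Ca against AINlowVitD, and NWD1VitD against AINlowVitD. Each gave 0 calls in the 33 genes and 0% of all genes, and DESeq2 and limma on TPM called 0 of the 33 in each as well. At an unadjusted p under 0.05 stood 0, 0 and 5 of the 33. The medians were -0.07, -0.21 and -0.31, against -0.03, -0.02 and -0.06 over all genes. In NWD1Ca against AINlowVitD 32 of the 33 values were below 0, although the median turned to 0.06 on the TPM scale. The value with the smallest p there belonged to Sdhd, which read 673, 561 and 524 CPM in NWD1Ca and 853, 742 and 1017 in AINlowVitD (-0.52 ± 0.26 (SE)). NWD1VitD lay at 625, 566 and 477 CPM, below every AINlowVitD library (-0.68 ± 0.26 (SE)). Pdhb had the most negative value in NWD1VitD against AINlowVitD, -0.84 ± 0.23 (SE), with 131, 111 and 106 CPM against 178, 143 and 276. The median standard error of the 33 genes was 0.28 to 0.30 in these comparisons, which limited the differences that this fit could show. It comes from the fit of all 21 libraries and not from the spread of these groups alone. Fits of the 2 groups alone also called 0 of the 33 in each.

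AINlowVitD against AIN crosses the 2 sets. On the CPM scale 16 of the 33 genes passed, 2 higher and 14 lower, and 31.3% of all genes passed (15.1% higher and 16.3% lower). The median of the 33 was -0.55, against -0.10 over all genes. With limma on log2(TPM + 1) the split was 0 higher and 29 lower, beside 4.57% of all genes higher and 45.9% lower, and the median of all genes moved by -0.96 on that scale.

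Glud1 rose and Got2 fell on the CPM scale. Glud1 read 213, 195 and 239.9 CPM in AINlowVitD and 90.5, 91.8 and 64.9 CPM in AIN (1.39 ± 0.30 (SE), adjusted p = 0.00214), and every AINlowVitD library lay above every AIN library. On the TPM scale its change was 0.23 and was not called. Got2 read 71.8, 70.6 and 80.3 CPM and 102, 149 and 153 CPM (-0.85 ± 0.19 (SE), adjusted p = 0.00329), and it was called under all 16 alternatives.

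Me2 was the other gene that rose on the CPM scale, at 1045, 1004 and 846 CPM in AINlowVitD and 372, 520.0 and 447 in AIN (1.1 ± 0.31 (SE), adjusted p = 0.012), but on the TPM scale its sign turned, to -0.05. Without AIN 1, AIN 2 and NWD1 1, which leaves 1 AIN library and takes the spread from the other groups, it was 0.92 ± 0.44 (SE) and did not pass (adjusted p = 0.126). Among the entry genes, Pdha1 changed by -1.32 ± 0.31 (SE) (adjusted p = 0.00402), and Dld, the E3 subunit shared by the pyruvate and 2-oxoglutarate complexes, by -1.14 ± 0.28 (SE). Pdhx fell by 0.95 (SE 0.25), Pdk2 by 1.02 (SE 0.28) and Pcx by 1.34 (SE 0.45). The call of Pcx was lost without AIN 3, AINlowVitD 1 or AINlowVitD 2, with adjusted p-values of up to 0.314, while Pdha1, Dld, Pdhx and Pdk2 were called under all 16 alternatives.

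In the cycle itself, Sdha read 608, 544 and 616 CPM in AINlowVitD and 1328, 1425 and 2125 CPM in AIN (-1.46 ± 0.32 (SE), adjusted p = 0.00274) and was the most negative of the 33. Cs, citrate synthase, fell by 1.15 (SE 0.31) and Idh3a, the catalytic subunit of the NAD-linked isocitrate dehydrogenase, by 1.12 (SE 0.27). Suclg2 fell by 0.88 (SE 0.23). Idh3b, a partner subunit of Idh3a, fell by 0.75 (SE 0.23), Sdhc by 0.75 (SE 0.27), Ogdh by 1.42 (SE 0.50) and Dlst by 0.81 (SE 0.29). These last 4 calls were the least steady: between 4 and 8 of 16 alternatives lost each of them, and without AIN 3 the Ogdh value was -0.41 and the Dlst value -0.40. Cs was lost without AIN 3. The remaining 17 genes did not pass, among them Mdh2 at -0.23 ± 0.31 (SE), Suclg1 at -0.11 ± 0.24 (SE) and Idh2 at -0.18 ± 0.27 (SE).

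NWD1Ca against NWD1 crosses the sets as well. Here 3 genes passed as higher and 6 as lower, and 30.5% of all genes passed (15.6% higher and 14.9% lower). The median was -0.36, against -0.04 over all genes. On the TPM scale the split was 0 higher and 28 lower, beside 5.15% of all genes higher and 51.5% lower, with a shift of all genes of -1.15. Without NWD1 3 the count dropped to 2, while 1463 of the 16533 genes tested passed as higher and 1061 as lower. Without NWD1Ca 2 it dropped to 5, while 1966 of 16557 passed as higher and 1652 as lower. NWD1 3 was the only female of NWD1, and NWD1Ca held females alone. Without NWD1 3, sex and diet cannot be told apart within these 2 groups, and the sex term comes from the other groups. In the fit of the 2 groups alone, the sex term sets NWD1Ca against NWD1 3.

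Glud1 read 206, 227 and 183 CPM in NWD1Ca and 89, 57.3 and 44.4 CPM in NWD1 (1.67 ± 0.33 (SE), adjusted p = 0.00156). Me1 read 20.0, 16.3 and 17.1 and 1.44, 3.12 and 5.23 CPM (2.02 ± 0.63 (SE), adjusted p = 0.0219), and Me2 873, 1105 and 547 and 236, 439 and 396 CPM (1.06 ± 0.34 (SE), adjusted p = 0.0242). Each of the 3 lay above NWD1 in every library, but only Glud1 passed under every alternative on the CPM scale. Of the 17 alternatives, 7 lost the call of Me1, the TPM scale and the fits without NWD1 1, NWD1 3 or NWD1Ca 1 among them. For Me2, 10 lost it or turned its sign, which was -0.27 on the TPM scale.

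Pdk2 fell by 1.35 (SE 0.30, adjusted p = 0.00311) and was called under all 17 alternatives; it read 59.7, 49.7 and 48.2 CPM in NWD1Ca and 110.3, 134 and 128 CPM in NWD1. Got2 fell by 0.74 (SE 0.21), Pcx by 1.61 (SE 0.47), Pdha1 by 1.11 (SE 0.33), Pdp1 by 1.56 (SE 0.47) and Sdha by 1.07 (SE 0.34). All 5 of these calls were lost without NWD1 3, the only female of NWD1, and over the alternatives their adjusted p-values reached 0.249. Pdp1 and Pcx were rare, at 4.21, 3.2 and 4.41 and 5.84, 5.49 and 6.74 CPM in NWD1Ca.

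NWD1VitD against NWD1 gave 3 genes higher and 12 lower, beside 40.5% of all genes (19.9% higher and 20.6% lower). The median was -0.54, against -0.03 over all genes. On the TPM scale the split was 0 higher and 29 lower, beside 4.36% of all genes higher and 60.3% lower, with a shift of -1.38. Without NWD1 1 and NWD1 2, which leaves NWD1 with 1 library and borrows its spread from the remaining groups, 6 of the 33 genes and 29.2% of all genes passed. Of the 33, 9 passed without NWD1 2 or without NWD1VitD 3. Of all genes tested, 2424 of 16305 passed as higher and 2647 as lower without NWD1 2. Without NWD1VitD 3, 2552 of 16555 passed as higher and 2327 as lower. NWD1 also served as the control of NWD1Ca, so the values of these 2 comparisons are not independent.

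Got2 had the smallest p of the 33. It read 62.5, 49.7 and 55.8 CPM in NWD1VitD and 117, 139 and 107 CPM in NWD1 (-1.11 ± 0.19 (SE), adjusted p = 0.0003), and all 17 alternatives called it. Glud1 read 203, 194 and 189 CPM in NWD1VitD (1.62 ± 0.30 (SE), adjusted p = 0.000456) and lost its call on the TPM scale, where the change was 0.08. Me1 rose by 2.55 (SE 0.60, adjusted p = 0.00294) from the NWD1 values above to 22.2, 19.4 and 10.9 CPM. Me2 rose by 1.17 (SE 0.31, adjusted p = 0.00621) to 823, 877 and 710.3 CPM, with a sign that turned to -0.38 on the TPM scale.

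Of the genes that fell, Pdk2 (-1.25 ± 0.28 (SE)), Pdha1 (-1.22 ± 0.31) and Sdha (-1.22 ± 0.32) were called under all 17 alternatives. Idh3a fell by 1.08 (SE 0.27) and Idh2 by 0.98 (SE 0.27). Idh2 read 177, 112 and 126 CPM in NWD1VitD against 286, 312 and 221 in NWD1, with no overlap. Suclg2 fell by 0.76 (SE 0.23), Pdhx by 0.84 (SE 0.25), Pdp1 by 1.31 (SE 0.44) and Pcx by 1.2 (SE 0.45). Idh3g, the third subunit of the NAD-linked enzyme, fell by 0.63 (SE 0.23) and Dld by 0.71 (SE 0.28), and each of these last 2 calls was lost under 9 of 17 alternatives. The call of Pcx was lost under 6 of 17 alternatives and its change was -0.69 without NWD1 3 (adjusted p = 0.272). Pdp1 was lost under 5, Suclg2 under 4 and Pdhx under 3. In the fit with 1 NWD1 library, the changes that no longer passed were -0.93 for Idh3a, -0.76 for Idh2, -0.81 for Suclg2, -0.85 for Pdhx, -1.48 for Pdp1, -0.17 for Idh3g, -0.78 for Dld, 2.2 for Me1 and 1.19 for Me2. Of these, Idh3g was the one that moved by over 1.5 times.

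Marker levels were read in the same 3 comparisons, AINlowVitD against AIN, NWD1Ca against NWD1 and NWD1VitD against NWD1. Of all genes, 15.1, 15.6 and 19.9% passed as higher in them and 16.3, 14.9 and 20.6% as lower. Of 16 enterocyte markers, 1 passed as higher in AINlowVitD against AIN, 7 in NWD1Ca against NWD1 and 11 in NWD1VitD against NWD1. Of 12 stem cell markers, 1, 4 and 6 passed as lower. The median log2 fold changes in the same order were 0.18, 1.52 and 2.19 for enterocyte markers and 0.02, -0.76 and -1.08 for stem cell markers. Goblet cell markers summed to 35292 to 79160 CPM over the second set and to 8856 to 29318 CPM over the first, although only 1, 1 and 2 of 8 passed as higher in these 3 comparisons and 1 passed as lower in NWD1Ca against NWD1. Enteroendocrine markers summed to 3272 to 7445 CPM over the second set and to 396 to 2574 CPM over the first, and 3 of 8 passed as higher in each comparison. Of 8 Paneth cell markers, 3, 1 and 4 passed as higher, although their median log2 fold change was -0.31 in NWD1Ca against NWD1. Their part in the changes of the 33 genes was not tested.

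**Figure D3:**
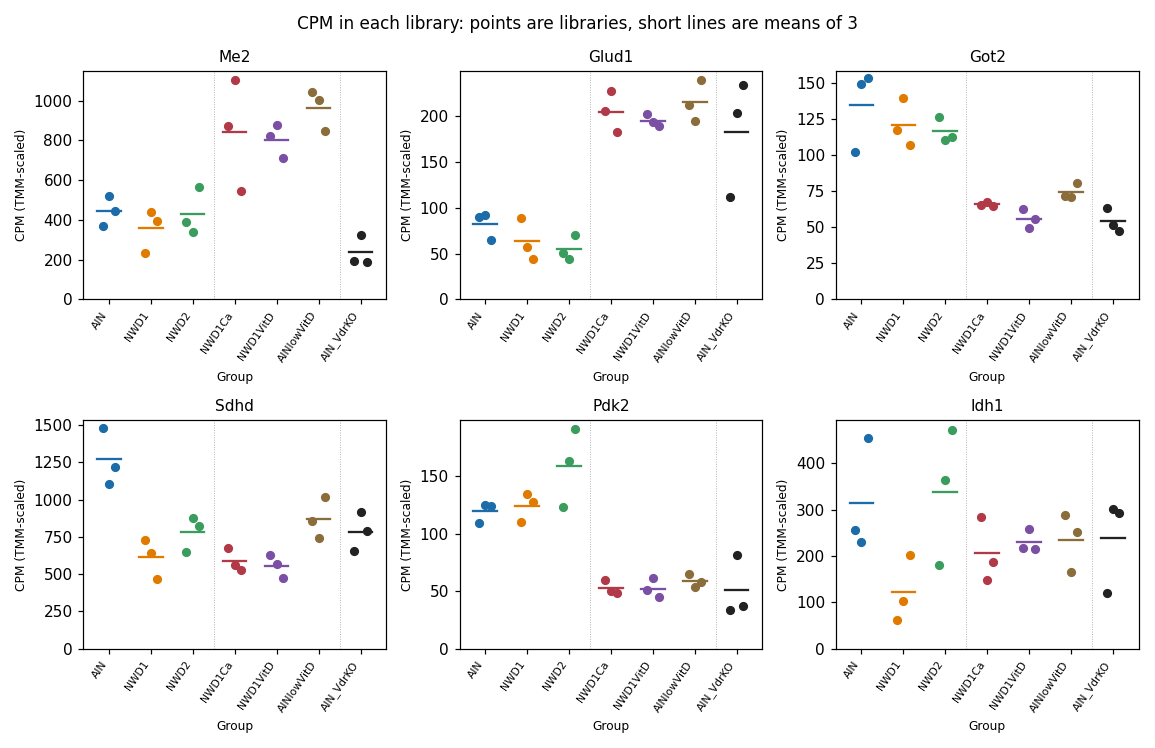
CPM of Me2, Glud1, Got2, Sdhd, Pdk2 and Idh1 in each library (points) with the mean of 3 libraries (short lines), by group, from an axis that starts at 0, with dotted lines between the first set, the second set and the libraries labelled AIN_VdrKO. Got2 and Pdk2 are lower and Glud1 higher in the second set and in the libraries labelled AIN_VdrKO, Me2 is higher in most libraries of the second set than in the first, with overlap between the highest NWD2 library and the lowest NWD1Ca library, and Sdhd is highest in AIN.

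The libraries labelled AIN_VdrKO, in which Vdr RNA was not depleted, were compared with AIN. On the component above they lay at 43.8, 3.83 and -21.9, and AIN at -38.6, -40.2 and -97.6. Genotype and this difference cannot be told apart. Of the 33 genes 2 passed as higher and 9 as lower, beside 12.5% of all genes (7.44% higher and 5.09% lower). The median was -0.70, against -0.01 over all genes. An unadjusted p under 0.05 was seen for 22 of the 33, beside 27.4% of all genes. The count depended on the fit: DESeq2 called 18 (2 higher and 16 lower) beside 10.4% of all genes higher and 8.24% lower. The fit of these 2 groups alone called 2 beside 2.62% of all genes. The fits without AIN 3, AIN_VdrKO 1 or AIN_VdrKO 2 called 2, 4 and 7. Of the 16352, 16515 and 16560 genes tested in these fits, 685, 1134 and 916 passed as higher and 307, 477 and 848 as lower. On the TPM scale the split was 0 higher and 9 lower, beside 4% of all genes higher and 4.41% lower, with a shift of -0.23. All 3 libraries labelled AIN_VdrKO came from males, and AIN 3 was the only male of AIN. Without AIN 3, sex and group cannot be told apart within these 2 groups, and the sex term comes from the other groups. In the fit of the 2 groups alone, the sex term sets the libraries labelled AIN_VdrKO against AIN 3. AIN was also the control of AINlowVitD, so the 2 comparisons share their control libraries. Idh3a, Ogdh, Dlst, Dld, Sdha, Pcx, Pdk2, Got2 and Glud1 were called in the same direction in both, and Got1 and Me1 only here.

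Got2 fell most steadily. It read 63.4, 51.7 and 47.1 CPM in the libraries labelled AIN_VdrKO and 102, 149 and 153 CPM in AIN, with no overlap (-1.45 ± 0.21 (SE), adjusted p = 0.000274), and of 16 alternatives only the fit of the 2 groups alone lost it (adjusted p = 0.0944). Got1 fell by 1.23 (SE 0.37, adjusted p = 0.0348), from 90.1, 97.6 and 133 CPM in AIN to 32.5, 55.8 and 47.6 CPM. Both aminotransferases thus lay lower, and Glud1 lay higher, at 112, 204 and 234 CPM (1.18 ± 0.33 (SE), adjusted p = 0.0238). The Got1 and Glud1 calls were both lost without AIN 3, without AIN_VdrKO 3 and in the fit of the 2 groups alone.

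Pcx read 5.49, 6.83 and 3.05 CPM in the libraries labelled AIN_VdrKO and 13.9, 17.2 and 32.1 in AIN (-1.98 ± 0.47 (SE), adjusted p = 0.00982). It was lost without AIN 3, the only male of AIN and the AIN library in which it was highest (adjusted p = 0.206). Pdk2 fell by 1.14 (SE 0.30), Sdha by 1.29 (SE 0.34), Idh3a by 0.97 (SE 0.29), Dlst by 1.05 (SE 0.31), Ogdh by 1.60 (SE 0.51) and Dld by 0.95 (SE 0.30), and the calls of all 6 were lost without AIN 3. Ogdh read 412, 563 and 1369 CPM in AIN and 138, 306 and 279 CPM in the libraries labelled AIN_VdrKO, and AIN 3 lay far above the other 2 AIN libraries. Me1 rose by 2.4 (SE 0.63, adjusted p = 0.0179) to 7.35, 7.57 and 29 CPM from 2.13, 6.05 and 3.67 CPM, and AIN_VdrKO 3 was far above the other 2. The call of Me1 was lost without that library (one of 5 alternatives that lost it). In the libraries labelled AIN_VdrKO the 12 stem cell markers summed to 4052 to 6986 CPM. Of these, 4 passed as higher against AIN, beside 7.44% of all genes. The 16 enterocyte markers summed to 8751 to 16426 CPM and 1 passed as lower, beside 5.09% of all genes. The part of these markers in the changes of the 33 genes was not tested.

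Against AINlowVitD, the libraries labelled AIN_VdrKO differed in 1 gene of the 33, 3.07% of all genes having passed (0.685% higher and 2.38% lower). That gene was Me2, which read 194, 326 and 189 CPM in the libraries labelled AIN_VdrKO and 1045, 1004 and 846 CPM in AINlowVitD (-1.85 ± 0.34 (SE), adjusted p = 0.00811). All 3 libraries lay below all 3, and 12 of 15 alternatives kept the call. It was lost in the fit of the 2 groups alone (adjusted p = 0.221) and on the TPM scale (-0.96, adjusted p = 0.0686), where the median of all genes shifted by 0.74. In the fit of the 2 groups alone, the sex term sets the libraries labelled AIN_VdrKO against AINlowVitD 3, the only male of its group. The median was -0.18 for the 33 genes, against 0.13 over all genes, and 0.69 on the TPM scale, on which 9 of the 33 genes and 30.1% of all genes were called higher. Without AIN_VdrKO 1, whose level of the component above was nearest to the second set, 3 genes passed. In that fit 824 of the 16515 genes tested passed as higher and 1117 as lower. Without AIN_VdrKO 3, whose depth of 115435120 counts was the highest of all libraries (a comparison chosen after the data were seen), Me2 changed by -1.71 (adjusted p = 0.0402). In the same 3 libraries Me2 also lay below every AIN library (-0.74 ± 0.33 (SE) against AIN, adjusted p = 0.152), a difference that did not pass.

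Ratios of 2 genes within a library do not depend on how the library was scaled, and they are given as a description in TPM. Idh1 over Idh2 was 0.942 to 3.13 in AIN, 0.218 to 0.939 in NWD1 and 0.709 to 3.08 in NWD2, so NWD1 lay narrowly below AIN and NWD2 spanned both. Got1 over Got2 was 0.667 to 0.901 in AIN, 0.298 to 0.413 in NWD1 and 0.293 to 0.961 in NWD2. Sucla2 over Suclg2 was 1.26 to 1.64 in AIN and 0.842 to 0.885 in NWD1, the narrowest range of any group. It was 0.830 to 1.47 in NWD2. In Got1 over Got2 and Sucla2 over Suclg2, NWD2 1 lay below every NWD1 library. In these 3 pairs the second set overlapped AIN: 0.878 to 2.38 for Idh1 over Idh2, 0.524 to 1.11 for Got1 over Got2 and 1.3 to 2.07 for Sucla2 over Suclg2. Idh2 over Idh3a went the other way, at 0.215 to 0.378 in AIN and 0.575 to 0.692 in NWD1, but it was also above every AIN library in the second set (0.475 to 0.754) and in the libraries labelled AIN_VdrKO (0.543 to 0.806).

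Some other ratios separated the 2 sets and some overlapped between them. Glud1 over Got2 was 0.252 to 0.562 over the first set, 1.74 to 2.47 in the second and 1.12 to 3.14 in the libraries labelled AIN_VdrKO. Me2 over Cs was 0.461 to 0.947 over the first set and 2.12 to 3.94 over the second, and the libraries labelled AIN_VdrKO, at 0.361 to 0.722, lay in the range of the first. In Glud1 over Got2, the libraries labelled AIN_VdrKO all lay above the first set, and none of the 3 lay within the range of the second. Sdhb over Sdha, 2 subunits of 1 enzyme, was 0.6 to 2.01 over the first set, against 2.31 to 3.64 over the second. Pdhb over Pdha1 overlapped slightly between the sets, at 1.07 to 2.42 and 2.33 to 5.49. Mdh1 over Mdh2 overlapped fully, at 0.437 to 0.635 over the first set, beside 0.457 to 0.522 over the second. The kinases over the phosphatase, as the sum of Pdk1, Pdk2 and Pdk3 over Pdp1, ran from 20.5 to 45.5 over the first set and from 28.9 to 54.3 over the second.

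Genes that supply or assemble the cycle were read from a related list of 40, of which 39 were tested. It holds carriers of the inner membrane, glutaminases, lactate dehydrogenases, and assembly and lipoylation factors. None passed in the 6 comparisons within a set, with medians between -0.24 and 0.06. In AINlowVitD against AIN, 3 passed as higher and 14 as lower (median -0.44). Sdhaf1, an assembly factor of succinate dehydrogenase, changed by 2.51 ± 0.56 (SE) at mean CPM of 22.4 against 3.78, and Brp44, a subunit of the mitochondrial pyruvate carrier also named Mpc2, by 1.62 ± 0.41 (SE) at 747 against 227. Nnt, the transhydrogenase that makes mitochondrial NADPH, changed by -1.26 ± 0.32 (SE) and Pck2, the mitochondrial phosphoenolpyruvate carboxykinase, by -0.97 ± 0.25 (SE).

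In NWD1Ca against NWD1 the list gave 4 higher and 9 lower (median -0.42), led by Ogdhl, a relative of Ogdh, at -2.5 ± 0.43 (SE), Pck2 at -1.29 ± 0.28 (SE), Brp44 at 2.08 ± 0.46 (SE) and Acss2, a cytosolic acetyl-CoA synthetase, at -1.18 ± 0.27 (SE). In NWD1VitD against NWD1 it gave 5 higher and 11 lower (median -0.33), led by Pck2 at -1.93 ± 0.26 (SE), Nnt at -1.94 ± 0.32 (SE), Acss2 at -1.37 ± 0.25 (SE) and Ogdhl at -2.08 ± 0.41 (SE). Pck2 fell from a mean of 109 CPM in NWD1 to 28.5 CPM in NWD1VitD. The libraries labelled AIN_VdrKO against AIN gave 1 higher, Sdhaf1 at 2.07 ± 0.64 (SE), and 4 lower, among them D2hgdh, which oxidises D-2-hydroxyglutarate, at -1.25 ± 0.38 (SE) and the dicarboxylate carrier Slc25a10 at -0.94 ± 0.29 (SE). Against AINlowVitD 1 passed as lower, the glutamine synthetase gene Glul at -1.29 ± 0.33 (SE). The shares of all genes that passed in these comparisons are those given above.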

How the data were processed

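RNA was measured in 21 bulk libraries of sorted Lgr5 cells, in 7 groups of 3 taken from the sample labels. The authors deposited whole-number read counts and TPM values for 37310 genes; the submitters' processing notes name the tools HTSeq 0.6.1, STAR 2.4.2a and edgeR and the build mm9. Their settings and the annotation are not stated in the sources used here. Per the labels' protocols, cDNA came from SMART-Seq v4 and libraries from Nextera XT, which does not mark strand, so antisense overlaps cannot be told apart, and genes with close copies may share or lose reads. The 92 spike-in rows stayed out of library sizes and tests. Replicates differed by more than sampling noise (chi-square per degree of freedom at least 47.5).

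The 33 genes and the other lists were chosen with earlier results of these data known. Counts were tested with edgeR 4.0.16 in R 4.3.3 (quasi-likelihood F test, two-sided, TMM scaling, filterByExpr by group) in 1 fit of 21 libraries with group means and a sex term. Benjamini-Hochberg adjustment ran over 16050 genes with a threshold of 0.05. CPM use TMM-scaled sizes. Standard errors are the fold change over the root of F. Every called gene of the 33 is named, the others are given by range, and up to 4 called genes with the smallest p are named per comparison from the related list, of which 1 is not reported here. Alternatives were RLE scaling, no filter on low counts, limma 3.58.1 on log2(TPM + 1) and log2(TPM + 0.1), DESeq2 1.42.0, no sex term, a replicate block, the 2 groups alone, removal of the trend with gene length, and fits without named libraries or each library in turn. The fit was tested on simulated data. Promoters are RefSeq sequences of GRCm38.p6, another build than the counts.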

Additional observations from a re-analysis of the deposited data

How the results depend on the processing

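Counts of genes past the threshold are given as main value and alternatives. In NWD1 against AIN the 0 became 2 with no filter on low counts, 7 with DESeq2 and 1 with no sex term, and leaving out 1 library gave 0 to 0. In NWD2 against AIN the 0 became 1 with no filter. In NWD2 against NWD1 the 0 became 2 with no filter and 1 with DESeq2, and leaving out 1 library gave 0 to 1. The 3 comparisons within the second set stayed at 0 under each alternative run. For AINlowVitD against AIN, 16 became 29 with either TPM pseudocount (12 to 17 without 1 library). For NWD1Ca against NWD1, 9 became 28 with either (2 to 10 without 1 library). For NWD1VitD against NWD1, 15 became 29 with either and 6 without NWD1 1 and NWD1 2, which leaves 1 library in NWD1 (9 to 16 without 1 library). For AIN_VdrKO against AIN, 11 became 18 with DESeq2 and 2 in the 2 groups alone (2 to 10 without 1 library). For AIN_VdrKO against AINlowVitD, 1 became 9 and 12 with log2(TPM + 1) and log2(TPM + 0.1), 2 with DESeq2 and 0 in the 2 groups alone (1 to 3 without 1 library).

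Signs turned on the TPM scale, on which the median of all genes shifted by -0.96 or more in the comparisons across sets; values are for pseudocounts of 1 and 0.1. In AINlowVitD against AIN, Me2 was -0.047 and -0.047. In NWD1Ca against NWD1, Me2 was -0.27 and -0.27, Sucla2 -1.21 and -1.22, Suclg1 -1.05 and -1.06, Sdhb -0.94 and -0.94, Sdhd -1.27 and -1.27, Mdh1 -1.16 and -1.16, Mdh2 -0.93 and -0.93, Pdhb -1.21 and -1.21, and Got1 -1.28 and -1.32. In NWD1VitD against NWD1, Me2 was -0.38 and -0.38, Sucla2 -1.43 and -1.45, Suclg1 -1.41 and -1.42, Sdhb -1.42 and -1.43, Mdh1 -1.34 and -1.34, Mdh2 -1.11 and -1.11, and Pdk1 -0.96 and -1.09.

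The labels do not say whether the replicate numbers in the titles pair the samples. Deviations of same-numbered libraries correlated at -0.30 to 0.49 (median 0.00, 63 pairs), and 9 of 21 libraries correlated best with their own number. Libraries with different numbers correlated at -0.41 to 0.41 (median 0.01, 126 pairs). These values cannot exclude a pairing. With the number as a replicate block, the counts were 16, 9, 15, 12 and 1 in the last 5 comparisons and 0 elsewhere; Dld in NWD1VitD against NWD1 was not called (adjusted p = 0.0636), and Idh1 there and Fh1 in AIN_VdrKO against AIN were called. Each comparison rests on 3 libraries a group, so changes smaller than the spread between libraries were not detectable; the cause of the changed counts was not tested.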
